A study of Homo sapiens with 12 samples.

Results

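The genes described here encode the nuclear subunits of the oxidative phosphorylation system, measured in HepG2 cells, a line established from a human hepatoma. They were found as probe sets whose only annotated symbol was SDHA, SDHB, SDHC, SDHD or CYC1, or began with NDUFA, NDUFB, NDUFC, NDUFS, NDUFV, UQCR, COX4I, COX5, COX6, COX7, COX8 or ATP5, leaving out assembly factors named NDUFAF. The rule gave 87 probe sets of 80 genes, of 19460 single-symbol probe sets and 18417 genes on the array. By complex they were 34 genes of complex I, 3 of complex II, 8 of complex III, 17 of complex IV and 18 of complex V. The pseudogenes ATP5F1EP2 and UQCRBP1 and the long non-coding RNA gene NDUFV1-DT matched the letters of the rule and were left out. SDHB, UQCRFS1, NDUFA4 and NDUFA4L2 were not analysed here, nor were the 13 subunits encoded by mitochondrial DNA.

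Oxidative phosphorylation passes electrons from NADH (complex I) and succinate (complex II) through complex III to oxygen at complex IV, and the proton gradient built on the way drives ATP synthesis by complex V. Core subunits of complex I, III, IV and V are encoded in both genomes, and many accessory subunits surround them. Nuclear subunit genes are known to carry binding sites for NRF1, for the ETS factor GABP and for YY1 in their promoters, and the PGC-1 coactivators act through such factors.

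The cells carried either sh-p53, a small-hairpin RNA against p53, or sh-con, an unrelated control hairpin. Cells of each line received for 24 h either 10 uM Nutlin, which blocks the binding of p53 to MDM2, 0.5 mM AICAR, a nucleoside that cells convert into an AMP analogue activating the kinase AMPK, or DMSO. The 6 groups were thus sh-p53 Nutlin, sh-con Nutlin, sh-p53 AICAR, sh-con AICAR, sh-p53 DMSO and sh-con DMSO, each with 2 cultures and 1 array per culture. Whether a line was 1 clone or a pool was not given in the sources used here, and all groups are one tumour-derived line. In bulk RNA, fewer cells expressing a gene and less of its RNA per cell cannot be told apart.

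Values are log2 expression after robust multi-array averaging (RMA), and a gene was read from its brightest probe set. Differences are log2 fold changes with the SE of a limma fit on all 12 arrays, and a gene counted as called where its p, adjusted by Benjamini-Hochberg over the 13813 genes tested, was below 0.05. Of the 80 subunit genes, 77 passed the filter on dim genes (mean log2 level of 4.58 or more). COX6B2 (3.26 to 3.71), COX7B2 (3.21 to 3.64) and COX8C (3.70 to 4.19), isoforms known from other tissues such as testis, lay below that level on all 12 arrays. The 77 tested members had mean log2 levels between 5.004 and 12.005.

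Arrays of a group correlated at r = 0.983 to 0.994 over all genes tested, and the members differed between them with an SD of 0.132 to 0.184. That SD leaves out any offset shared by the members. For example, the members' median deviation from each gene's mean was 0.113 and -0.098 on the sh-p53 Nutlin arrays. For all genes it was -0.002 and 0.003 there. Pooled over the groups, the members' median less that of all genes had an SD of 0.0851 between arrays of a group. All 14 hepatocyte markers with a probe set lay above the dim level, against 1 of 6 endothelial, 5 of 7 fibroblast and stellate, 3 of 5 leukocyte and 3 of 6 striated muscle markers. The summed log2 level of the fibroblast and stellate list was 40.4 to 40.9 in sh-con Nutlin, against 37.5 to 37.8 in sh-con DMSO, and 37.0 to 37.9 in sh-p53 Nutlin, against 35.5 to 35.9 in sh-p53 DMSO, so that it also differed between the lines in DMSO. ACTA2, smooth muscle actin, alone was higher by 2.20 with Nutlin in sh-con and by 1.35 in sh-p53. For the leukocyte list the sum was 34.5 to 34.8 in sh-con Nutlin and 35.3 to 35.7 in sh-con AICAR, against 33.6 to 34.0 in sh-con DMSO, and 34.6 to 34.7 in sh-p53 AICAR, against 33.1 to 33.2 in sh-p53 DMSO. In that list CD14 was higher by 0.92 with Nutlin and 0.93 with AICAR in sh-con, and by 0.48 with AICAR in sh-p53. CD68 was higher with AICAR by 0.59 in sh-con and 0.89 in sh-p53. On the 12 arrays PTPRC lay between 3.11 and 3.38, CD3E between 4.19 and 4.89 and LYZ between 12.24 and 12.59. The part of these genes in the subunit results was not tested. With Nutlin 6 of 26 p53 target genes were called as higher in the sh-p53 line, against 22 in the sh-con line. Of all genes tested 0.0796% were called as higher in sh-p53 and 11.3% in sh-con. The cell cycle inhibitor CDKN1A rose less in sh-p53 (difference of the responses -1.46 ± 0.19, limma adjusted p 3.82e-05). MDM2, the ligase that binds p53, rose by 1.32 ± 0.14 in sh-p53 and by 1.59 ± 0.14 in sh-con. Its difference of the responses was not called (-0.27 ± 0.19, limma adjusted p 0.481).

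The promoters of 6 members on which the results below turn are shown first, from RefSeq for GRCh38.p14, 250 bases before and 50 after each annotated start, written along the gene's strand. NDUFV2 (chr18:9102449-9102748, plus strand) and NDUFS4 (chr5:53560389-53560688, plus strand) were lower with AICAR in both lines. NDUFA8 (chr9:122159730-122160029, minus strand) was lower with AICAR in sh-p53. COX6A1 (chr12:120437863-120438162, plus strand) and NDUFA2 (chr5:140647581-140647880, minus strand) were higher with AICAR in both lines. NDUFB10 (chr16:1959288-1959587, plus strand) was lower with Nutlin in sh-con. Capitals mark matches, on either strand, to GCGCA followed by any base and GCGC for NRF1, to CCGGAAG for ETS factors and to AANATGGC for YY1, where N is any base.
NDUFV2: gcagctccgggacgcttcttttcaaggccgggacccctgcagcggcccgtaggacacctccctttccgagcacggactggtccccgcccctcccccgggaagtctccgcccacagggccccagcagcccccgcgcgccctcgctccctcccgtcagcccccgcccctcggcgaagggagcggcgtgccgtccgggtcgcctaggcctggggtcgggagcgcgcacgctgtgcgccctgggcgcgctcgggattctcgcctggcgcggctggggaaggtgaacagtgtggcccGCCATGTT
NDUFS4: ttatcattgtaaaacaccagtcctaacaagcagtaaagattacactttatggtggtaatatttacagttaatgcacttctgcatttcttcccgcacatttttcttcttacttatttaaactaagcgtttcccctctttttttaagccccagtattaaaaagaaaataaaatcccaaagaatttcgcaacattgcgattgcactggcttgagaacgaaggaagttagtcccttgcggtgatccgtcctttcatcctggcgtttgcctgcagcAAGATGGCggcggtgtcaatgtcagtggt
NDUFA8: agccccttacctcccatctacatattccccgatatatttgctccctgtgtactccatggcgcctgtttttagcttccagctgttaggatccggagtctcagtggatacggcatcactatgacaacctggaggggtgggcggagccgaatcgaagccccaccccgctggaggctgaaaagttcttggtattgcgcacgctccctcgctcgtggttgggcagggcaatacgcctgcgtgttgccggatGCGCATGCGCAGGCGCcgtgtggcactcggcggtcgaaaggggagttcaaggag
COX6A1: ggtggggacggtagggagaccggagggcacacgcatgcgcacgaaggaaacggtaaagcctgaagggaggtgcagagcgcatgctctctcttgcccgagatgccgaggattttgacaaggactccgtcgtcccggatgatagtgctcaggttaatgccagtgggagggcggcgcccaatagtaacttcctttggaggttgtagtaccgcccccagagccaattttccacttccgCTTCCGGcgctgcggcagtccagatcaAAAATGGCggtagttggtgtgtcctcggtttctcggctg
NDUFA2: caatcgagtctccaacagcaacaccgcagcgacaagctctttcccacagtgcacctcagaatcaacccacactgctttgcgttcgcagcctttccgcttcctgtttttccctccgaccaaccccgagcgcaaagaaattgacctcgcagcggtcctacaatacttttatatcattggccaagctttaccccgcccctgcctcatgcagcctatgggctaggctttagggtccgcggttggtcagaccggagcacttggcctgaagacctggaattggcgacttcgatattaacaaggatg
NDUFB10: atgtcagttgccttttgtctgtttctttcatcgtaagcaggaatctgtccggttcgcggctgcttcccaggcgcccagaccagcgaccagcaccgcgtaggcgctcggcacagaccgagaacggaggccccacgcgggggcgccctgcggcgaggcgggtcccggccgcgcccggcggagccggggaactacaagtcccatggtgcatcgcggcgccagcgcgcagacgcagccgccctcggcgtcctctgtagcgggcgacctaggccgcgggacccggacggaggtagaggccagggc
NDUFV2 and NDUFS4 each held 1 match for YY1 after the start. NDUFA8 held a pair of overlapping NRF1 matches at the start, and COX6A1 an ETS and a YY1 match. The windows of NDUFA2 and NDUFB10 held none of these letters.

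RefSeq promoters were matched for 67 of the 80 members. The NRF1 letters stood in 16 of them (23.9%), against 8.58% of 15843 protein-coding promoters of the same length. ETS letters stood in 19 (28.4%, against 14.2%) and YY1 letters in 20 (29.9%, against 7.92%). At least 1 of the 3 motifs stood in 61.2% of the members' promoters and in 26.6% of all, and matches of different motifs overlapped in 0 member promoters. By complex, NRF1 letters were found in 6 of 32 promoters of complex I, 2 of 2 of complex II, 3 of 6 of complex III, 1 of 14 of complex IV and 4 of 13 of complex V. ETS letters were found in 5, 1, 3, 5 and 5 of them in the same order, and YY1 letters in 12, 0, 2, 3 and 3. NRF1 letters in complex IV (7.14%) and ETS letters in complex I (15.6%) were thus about as frequent as in all promoters. Members called in at least 1 comparison held a motif in 14 of 25 promoters (56.0%), against 26 of 39 (66.7%) for those called in none. These matches are a description of the letters.

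Across the 6 groups the subunit genes varied less than the typical gene. The median range of a member's group means was 0.378 on the log2 scale, against 0.588 for all genes tested. Of the 77 members, 49 (63.6%) were called in none of the 8 comparisons, against 5027 of 13813 genes (36.4%). Calls in at least 1 comparison were made for 16 of 34 complex I genes, 4 of 8 of complex III, 3 of 14 of complex IV, 5 of 18 of complex V and 0 of 3 of complex II. NDUFB10 (range 1.23), NDUFA2 (1.19) and NDUFS4 (1.08) of complex I spanned most, and NDUFB9 (0.103), also of complex I, spanned least. The median SE of a member's fold change was 0.146, against 0.153 for all genes, and the members' 95% intervals had a median half-width of 0.307 before any adjustment for the number of genes.

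**Figure D1:**
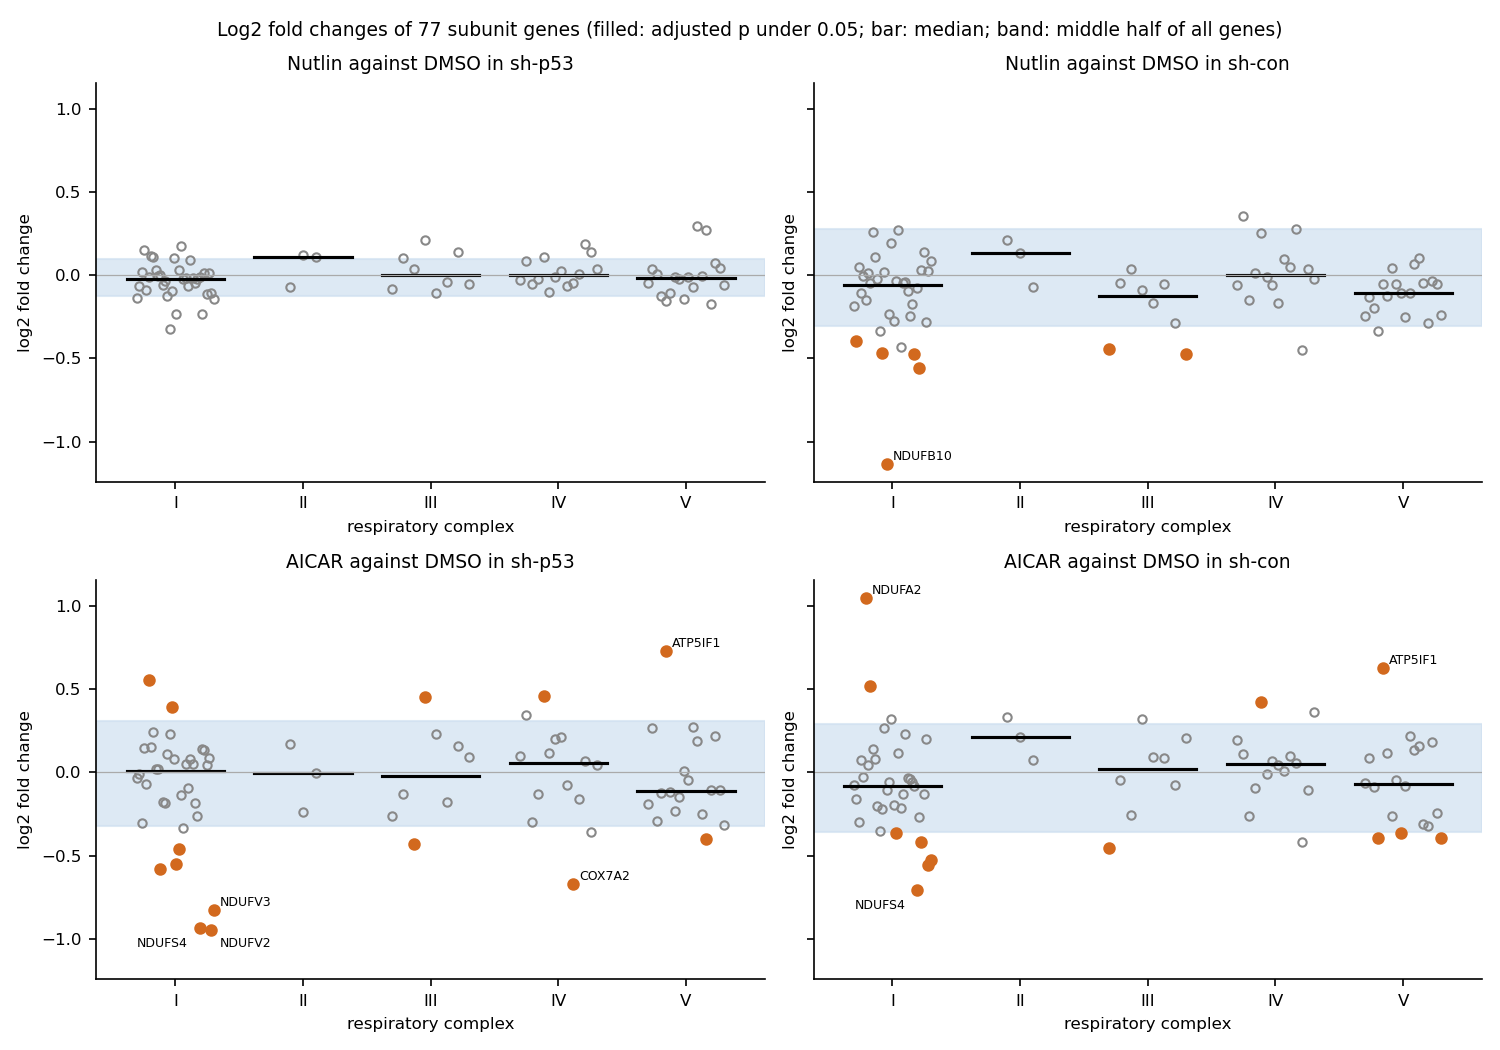
Log2 fold changes of the 77 tested subunit genes (y axis) by complex (x axis) for Nutlin and AICAR against DMSO, sh-p53 on the left and sh-con on the right. Filled points passed an adjusted p of 0.05, bars are medians and the band spans the interquartile range of all genes tested. NDUFB10 lies at -1.13 with Nutlin in sh-con, and 0 members are filled with Nutlin in sh-p53; other scalings move the split of higher and lower members, as the text gives.

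Without either compound the hairpin made no called difference among the subunit genes. In DMSO, limma called 0 of 77 members between sh-p53 and sh-con, where 0.644% of all genes were called (0.261% higher and 0.384% lower), and 1 member was lower and 0 higher at an unadjusted p under 0.05. That gene was COX7B, a small subunit of cytochrome c oxidase, named here after its values were seen. COX7B had 7.19 and 7.65 in sh-p53 DMSO, against 8.15 and 7.68 in sh-con DMSO, so that the groups lay side by side without overlap (fold change -0.50 ± 0.22, adjusted p 0.743). The members' median fold change was -0.037, against -0.004 for all genes tested.

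Nutlin-treated sh-con cells had lower levels of a small group of complex I and complex III genes than DMSO-treated ones, with 5 members higher and 5 lower instead when the arrays were quantile normalised again. Limma called 7 of 77 members, 0 higher and 7 lower (9.09%, against 30.3% of all genes tested, 11.3% higher and 18.9% lower), 5 of them in complex I and 2 in complex III. Of complex II, IV and V, 0 genes were called. The members' median fold change was -0.06, against 0.01 for all genes, and 97.4% of the members lay within 0.5 of 0, against 76.8% of all genes.

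NDUFB10, an accessory subunit of the membrane arm of complex I, had 7.17 and 7.07 in sh-con Nutlin, against 8.31 and 8.20 in sh-con DMSO. Both Nutlin arrays were the lowest of the 12 for this gene, far below the DMSO arrays. The fold change was -1.13 ± 0.14 (limma adjusted p 6.72e-06), a level 2.19-fold lower. In the sh-p53 line NDUFB10 had 7.94 and 7.65 with Nutlin, against 8.15 and 8.09 with DMSO, a fold change of -0.32 ± 0.14 that did not pass the test (adjusted p 0.731). The Nutlin response was 0.81 ± 0.20 higher in sh-p53 than in sh-con (adjusted p 0.0139). Its locus overlapped no other annotated gene.

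The other 6 changed less. NDUFS6, a zinc-binding accessory subunit, had 8.53 and 8.51 in sh-con Nutlin, against 9.16 and 8.99 in sh-con DMSO (fold change -0.56 ± 0.15, adjusted p 0.00957). NDUFS3, a core subunit of the ubiquinone-reducing module, had 9.26 and 9.18, against 9.68 and 9.71 in sh-con DMSO (-0.48 ± 0.15, adjusted p 0.0245). The groups did not overlap for either gene. NDUFAB1, the mitochondrial acyl carrier protein that is also a complex I subunit, fell by 0.47 (adjusted p 0.0295), and NDUFA10, an accessory subunit, fell by 0.40 (adjusted p 0.0327). In complex III, UQCRQ, a small subunit, had 8.24 and 8.52 in sh-con Nutlin, against 8.90 and 8.81 in sh-con DMSO (fold change -0.47 ± 0.15, adjusted p 0.0248). CYC1, the haem-bearing cytochrome c1, had 9.10 and 8.94, against 9.47 and 9.46 in sh-con DMSO (-0.44 ± 0.15, adjusted p 0.0313). NDUFS6 and UQCRQ overlap MRPL36 and GDF9 in the annotation, and neither partner fell with Nutlin in sh-con (0.25 ± 0.17 for MRPL36, not called, and 0.78 ± 0.15 for GDF9, a dim gene, limma adjusted p 0.00121).

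NDUFB10 was called under each of the 19 alternatives, and each of the other 6 was lost when 1 array or another was left out. Without sh-con DMSO 1, sh-con DMSO 2, sh-con Nutlin 1 or sh-con Nutlin 2 the count of lower members was 1, 2, 4 and 3. The second quantile normalisation left NDUFA10 and UQCRQ no longer called, and called COX6A1 (0.34), COX7A2L (0.37), NDUFA6 (0.38), NDUFB2 (0.34) and NDUFB5 (0.38) as higher, the last 3 named after their values were seen.

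Nutlin in the sh-p53 line made no called difference. Limma called 0 of 77 members, where 0.0796% of all genes were called, each of them higher, and 1 member, NDUFB10, was lower and 0 higher at an unadjusted p under 0.05. The median fold change was -0.02 for the members and -0.02 for all genes. For the difference of the Nutlin responses between the lines, NDUFB10 was the 1 of 77 members called (higher), where 7.40% of all genes were called, 4.67% higher and 2.73% lower. That call was lost without sh-con DMSO 1 (0.76, adjusted p 0.0838), sh-p53 DMSO 2 (0.78, adjusted p 0.0564), sh-con Nutlin 2 (0.77, adjusted p 0.0648) or sh-p53 Nutlin 1 (0.67, adjusted p 0.0866). For NDUFS3 the difference was 0.46 ± 0.21 (adjusted p 0.254) and for CYC1 it was 0.36 ± 0.21 (adjusted p 0.381).

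**Figure D2:**
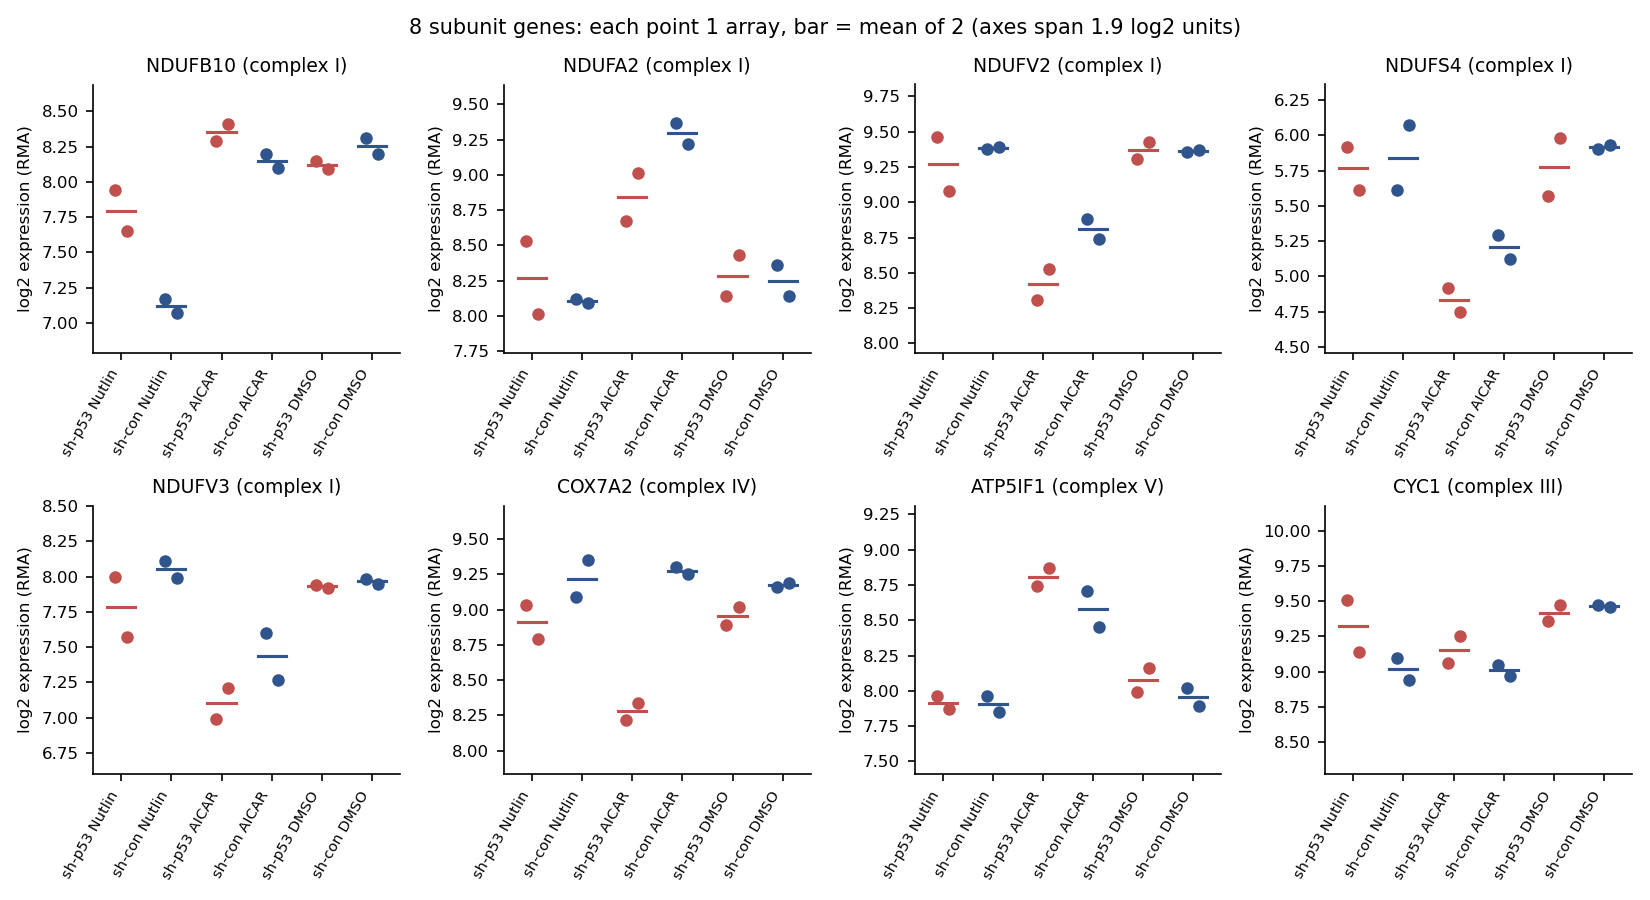
Log2 expression (RMA, y axis) of 8 subunit genes on each array, by group (x axis), red for sh-p53 and blue for sh-con, with bars at the mean of 2 arrays and every axis spanning 1.9 log2 units. NDUFB10 is lowest at 7.17 and 7.07 in sh-con Nutlin, and NDUFV2, NDUFS4 and NDUFV3 are lowest in sh-p53 AICAR.

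With AICAR some subunit genes were higher and others lower than with DMSO, in both lines, and the split moved with the scaling as given below. In sh-p53 limma called 14 of 77 members, 5 higher and 9 lower (18.2%, against 37.8% of all genes tested, 16.2% higher and 21.6% lower). In sh-con it called 13, with 4 higher and 9 lower (16.9%, against 37.8% of all genes, 14.6% higher and 23.2% lower). The members' median fold change was -0.04 in sh-p53, against 0.07 for all genes, and -0.04 in sh-con, against 0.04 for all genes. In sh-p53 89.6% of the members lay within 0.5 of 0 (71.4% of all genes), and in sh-con 92.2% (71.3%).

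The AICAR comparisons in sh-p53 and sh-con share no arrays. Of the calls, 7 members were called in both, 50% of those in sh-p53 and 53.8% of those in sh-con, all 7 with the same sign. Among all genes 3498 were called in both (67.1% of those in sh-p53 and 67.0% of those in sh-con), 3476 with the same sign. NDUFV2, NDUFS4, NDUFV3 and NDUFB4 of complex I were lower in both lines. NDUFA2 of complex I, COX6A1 of complex IV and ATP5IF1 of complex V were higher in both.

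**Figure D3:**
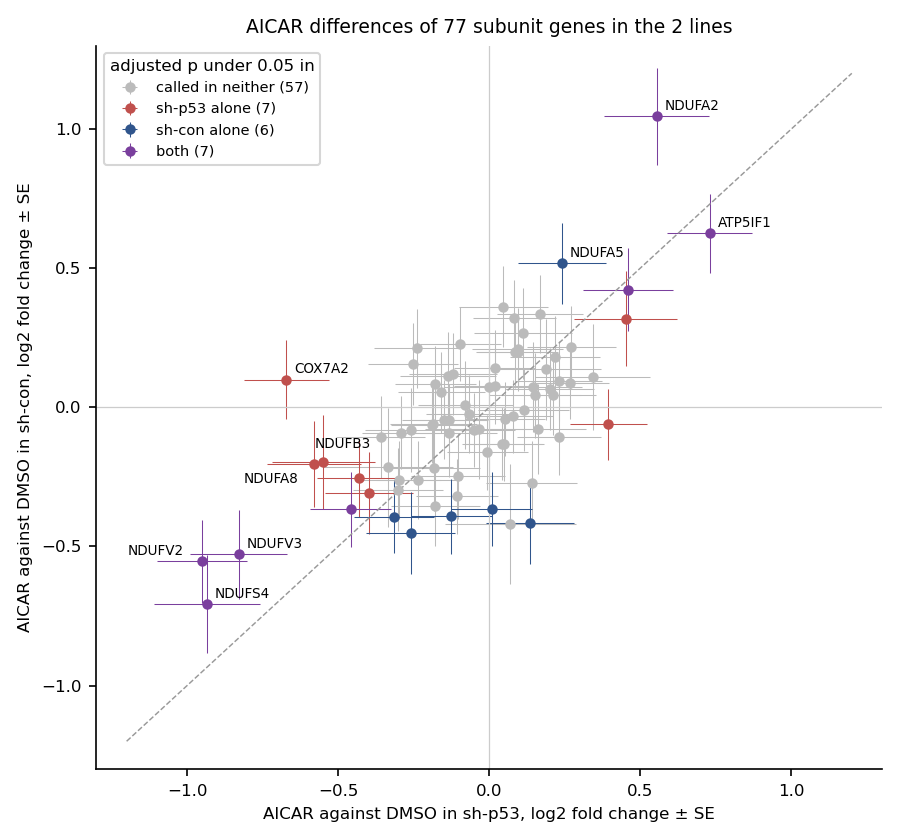
AICAR against DMSO for the 77 tested members, log2 fold change in sh-p53 (x axis) and in sh-con (y axis), with bars for the SE and colours for the line in which a gene was called. The dashed line marks equal values, NDUFA2 and ATP5IF1 lie at the upper right, and COX7A2 lies at -0.67 in sh-p53 and 0.10 in sh-con.

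NDUFV2, an iron-sulphur subunit of the NADH-oxidising module, had 8.31 and 8.53 in sh-p53 AICAR, against 9.31 and 9.43 in sh-p53 DMSO. In sh-con it had 8.88 and 8.74 with AICAR, against 9.36 and 9.37 with DMSO. All 4 AICAR arrays lay below the other 8. The fold changes were -0.95 ± 0.15 in sh-p53 (limma adjusted p 7.52e-05) and -0.55 ± 0.15 in sh-con (adjusted p 0.00675), and a second probe set gave -0.90 and -0.60.

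NDUFS4, an accessory subunit whose loss is known to cause Leigh syndrome, had 4.92 and 4.75 in sh-p53 AICAR, against 5.57 and 5.98 in sh-p53 DMSO. With AICAR in sh-con it had 5.29 and 5.12, against 5.90 and 5.93 with DMSO. The groups did not overlap in either line, although the gene is dim and its AICAR values lie near the level of 4.58 used to leave genes out. The fold changes were -0.94 ± 0.18 (adjusted p 0.000434) in sh-p53 and -0.71 ± 0.18 (adjusted p 0.00405) in sh-con. Its second probe set, with a mean of 4.45, gave -0.50 (adjusted p 0.0586) and -0.14 (adjusted p 0.615), neither called, and the mean of both sets was not called in sh-con.

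NDUFV3, an accessory subunit of the same NADH-oxidising module, had 6.99 and 7.21 in sh-p53 AICAR, against 7.94 and 7.92 in sh-p53 DMSO. In sh-con the values were 7.60 and 7.27 with AICAR, against 7.98 and 7.95 with DMSO. The fold changes were -0.83 ± 0.16 (adjusted p 0.000538) and -0.53 ± 0.16 (adjusted p 0.0148). NDUFB4, an accessory subunit of the membrane arm, had 8.82 and 8.90 in sh-p53 AICAR, against 9.25 and 9.39 in sh-p53 DMSO, and 9.01 and 8.90 in sh-con AICAR, against 9.40 and 9.24 in sh-con DMSO. NDUFB4 was lower by a fold change of -0.46 (adjusted p 0.0131) in sh-p53 and -0.37 (adjusted p 0.0417) in sh-con. The differences between the lines in these 4 responses did not pass the test, for example -0.40 for NDUFV2 (95% interval -0.84 to 0.05, adjusted p 0.467).

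NDUFA2, a small accessory subunit of complex I, went the other way. It had 8.67 and 9.01 in sh-p53 AICAR, against 8.14 and 8.43 in sh-p53 DMSO. In sh-con it had 9.37 and 9.22 with AICAR, against 8.36 and 8.14 with DMSO. No AICAR array overlapped the DMSO arrays of its line. The fold changes were 0.55 ± 0.18 (adjusted p 0.0192) in sh-p53 and 1.05 ± 0.18 (adjusted p 0.000146) in sh-con, and their difference was -0.49 (95% interval -1.01 to 0.03, adjusted p 0.437). NDUFA2 overlaps TMCO6 in the annotation, and TMCO6 differed by 0.64 ± 0.12 in sh-p53 (adjusted p 0.00103 with all genes tested) and 0.11 ± 0.12 in sh-con. Whether the probes separate the strands was not given in the sources used here.

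ATP5IF1, the protein that inhibits ATP hydrolysis by complex V, had 8.74 and 8.87 in sh-p53 AICAR, against 7.99 and 8.16 in sh-p53 DMSO. In sh-con it had 8.71 and 8.45 with AICAR, against 8.02 and 7.89 with DMSO. The 4 AICAR arrays were above all others for this gene. The fold changes were 0.73 ± 0.14 (adjusted p 0.000562) and 0.63 ± 0.14 (adjusted p 0.00201). COX6A1, the broadly expressed isoform of a cytochrome c oxidase subunit, had 10.44 and 10.49 in sh-p53 AICAR, against 9.87 and 10.14 in sh-p53 DMSO (0.46 ± 0.15, adjusted p 0.0209). In sh-con it had 10.48 and 10.33, against 9.93 and 10.03 with DMSO (0.42 ± 0.15, adjusted p 0.0318). A second COX6A1 probe set gave 0.43 in sh-p53 (limma adjusted p 0.0253) and 0.37 in sh-con (limma adjusted p 0.0528, not called). With each array centred on its median, COX6A1 was called in neither line (0.31 in sh-p53 and 0.28 in sh-con).

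Among the members called in 1 line alone, COX7A2 stood farthest from its value in the other. COX7A2, the isoform of subunit VIIa found in liver, had 8.22 and 8.34 in sh-p53 AICAR, against 8.89 and 9.02 in sh-p53 DMSO (fold change -0.67 ± 0.14, adjusted p 0.00116). In sh-con it had 9.30 and 9.25 with AICAR, against 9.16 and 9.19 with DMSO (0.10 ± 0.14, not called). The sh-p53 AICAR arrays were the lowest of the 12. The difference between the responses was -0.77 ± 0.20, with an adjusted p of 0.0754 that missed the threshold, while 3 alternatives gave 0.0271 to 0.0389. Thus 0 members were called for the difference of the AICAR responses, where 1.01% of all genes were called (0.304% higher and 0.709% lower), and in the same limma fit the unadjusted p was under 0.05 for 2 higher and 2 lower members.

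The other members lower with AICAR in sh-p53 were NDUFA8 (-0.58) and NDUFB3 (-0.55), accessory subunits of complex I, UQCR11 (-0.43) of complex III and ATP5MK (-0.40), a small complex V subunit. For NDUFA8 the values were 7.79 and 8.12 in sh-p53 AICAR, against 8.56 and 8.51 in sh-p53 DMSO, without overlap. A second ATP5MK probe set gave 0.23, and the mean of both sets was not called. Higher in sh-p53 were UQCRB (0.45), a complex III subunit, and NDUFB11 (0.39), a complex I accessory subunit whose overlapping neighbour RBM10 differed by -0.54. UQCRB was called in 7 of 18 alternatives, the fewest of the sh-p53 AICAR calls.

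Lower with AICAR in sh-con alone were CYC1 (-0.45), NDUFS7 (-0.42), an iron-sulphur core subunit of complex I, and ATP5PO (-0.39), ATP5F1D (-0.39) and ATP5ME (-0.36) of complex V, the stalk subunit OSCP, the delta subunit and subunit e. CYC1 had 9.05 and 8.97 in sh-con AICAR, against 9.47 and 9.46 in sh-con DMSO, so it was lower with both compounds in this line, against the same DMSO arrays. Higher in sh-con alone was NDUFA5 (0.52), an accessory subunit, with 8.95 on both AICAR arrays, against 8.39 and 8.48 with DMSO. Being called in one line and not the other does not show that the lines differ, and none of these differences passed the test of the responses.

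With genes kept at or above the 50th percentile, 72 members were tested, and limma called 19.4% with AICAR in sh-p53 (49.1% of all genes), 23.6% with AICAR in sh-con (49.1%, 15.9% of all genes as higher) and 11.1% with Nutlin in sh-con (40.3%). For the difference of the AICAR responses it then called COX7A2 as lower, where 1.34% of all genes were lower.

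Single arrays moved the AICAR counts. In sh-p53 the higher members numbered 1 without sh-p53 DMSO 1 or without sh-p53 AICAR 2, and 3 without sh-p53 DMSO 2 or sh-p53 AICAR 1. The lower ones numbered 5 without sh-p53 DMSO 2 and 4 without sh-p53 AICAR 1. In sh-con the higher members numbered 2 without sh-con DMSO 1, and the lower ones 2 without sh-con DMSO 1 or sh-con AICAR 2 and 3 without sh-con DMSO 2. Centring each array on its median moved the median of all genes by -0.15 in sh-p53 and -0.14 in sh-con, and the split of members then became 1 higher and 14 lower in sh-p53 and 2 higher and 14 lower in sh-con. Quantile normalising again gave 8 higher and 11 lower in sh-p53, and 9 higher and 8 lower in sh-con. NDUFV2, NDUFS4, NDUFV3, COX7A2 and ATP5IF1 in sh-p53, and NDUFV2, NDUFA2 and ATP5IF1 in sh-con, were called under each alternative in which they were tested.

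Nutlin and AICAR, both used here as p53 stimulators, were also set against each other in sh-con. Limma called 12 of 77 members, 4 higher and 8 lower with Nutlin (15.6%, against 34.8% of all genes tested, 17.9% higher and 16.9% lower). NDUFA2 (-1.19 ± 0.18) and NDUFB10 (-1.03 ± 0.14) were lowest with Nutlin relative to AICAR. NDUFA2 had 8.12 and 8.09 in sh-con Nutlin, against 9.37 and 9.22 in sh-con AICAR, and NDUFB10 had 7.17 and 7.07, against 8.20 and 8.10 with AICAR. UQCRQ (-0.68), ATP5IF1 (-0.68), NDUFA5 (-0.56), NDUFV1 (-0.48), the NADH-binding core subunit, NDUFS3 (-0.40) and COX8A (-0.39) were also lower with Nutlin. NDUFS4 (0.63), NDUFV3 (0.61), NDUFV2 (0.58) and NDUFS7 (0.45) were higher with Nutlin. Of these calls NDUFS3 and COX8A were kept in 6 of 19 alternatives each, and with the replicate number as a block neither was called. The higher members numbered 2 without sh-con Nutlin 2 and 1 without sh-con AICAR 2, and the lower ones 5 without sh-con AICAR 1. Quantile normalising again gave 9 higher and 8 lower, and centring on the median 4 higher and 5 lower.

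Core and catalytic subunits lay on both sides of the threshold, since NDUFV1, NDUFV2, NDUFS3, NDUFS7 and CYC1 were each called in at least 1 comparison, as given above. Complex II, succinate dehydrogenase, had no called member in any of the 8 comparisons. SDHA, its flavin-bearing subunit, had 10.68 and 10.55 in sh-con AICAR, against 10.35 and 10.22 in sh-con DMSO, a fold change of 0.34 (adjusted p 0.0695) that missed the threshold and passed it under 3 alternatives (adjusted p 0.0120 to 0.0464). For the membrane anchors SDHC and SDHD the fold changes with AICAR in sh-con were 0.21 and 0.07. Their second, dimmer probe sets gave 0.176 and 0.265 there, neither called. With Nutlin in sh-con the SDHD sets differed in sign (-0.07 for the brighter and 0.144 for the other), and neither was called. ATP5F1A and ATP5F1B, which form the catalytic head of complex V, ranged from -0.25 to 0.20 and from -0.22 to 0.27 over the 8 comparisons, with 0 calls. UQCRC1 and UQCRC2 of complex III, and NDUFS1, a core iron-sulphur subunit of complex I, likewise had 0 calls. With AICAR in sh-p53, ATP5F1B and UQCRC1 passed the threshold as higher when the arrays were quantile normalised again (0.26 and 0.29).

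Isoform pairs of complex IV could be followed within each gene. COX4I1, the common isoform of subunit IV, lay between 8.12 and 8.48 on the 12 arrays, and COX4I2, known as its hypoxia-responsive isoform, between 4.64 and 5.46, close to the dim level. Neither was called in any comparison, nor were COX5A, COX5B, COX6A2, COX6B1, COX7A1, COX7A2L and COX7B. COX7A2 and COX6A1 were called only with AICAR, as given above, while the fold changes of the muscle isoforms COX7A1 and COX6A2 in sh-p53 were -0.08 and 0.11. The 3 genes for the complex V ring subunit c, ATP5MC1, ATP5MC2 and ATP5MC3, had 0 calls, with fold changes from -0.26 to 0.30. Centring each array on its median called ATP5MC2 as lower with AICAR in sh-con (-0.40, adjusted p 0.0485) and COX5A as lower with AICAR in sh-p53 (-0.45, adjusted p 0.0312).

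Other mitochondrial genes were counted against the share of all genes called as lower, which was 21.6% with AICAR in sh-p53, 23.2% with AICAR in sh-con and 18.9% with Nutlin in sh-con. Of 73 tested mitochondrial ribosome genes, 2 were higher and 30 lower with AICAR in sh-p53, 4 higher and 38 lower with AICAR in sh-con, and 1 higher and 26 lower with Nutlin in sh-con (41.1%, 52.1% and 35.6% lower). MRPL58 (-1.72 in sh-p53 and -1.76 in sh-con) and MRPL24 (-1.33 and -1.38) fell with AICAR. Of 24 import genes 11, 13 and 9 were lower in those comparisons (45.8%, 54.2% and 37.5%) and 0 higher. Among the lower ones were TIMM9, an import chaperone (-1.48 in sh-p53 and -1.22 in sh-con with AICAR), and TOMM40, the outer membrane channel (-0.93 with Nutlin in sh-con). Among 18 complex I assembly factors 8, 7 and 6 were lower (44.4%, 38.9% and 33.3%), and NDUFAF1 had fold changes of -1.36 and -0.76 with AICAR in sh-p53 and sh-con. Of 22 complex IV assembly factors 5, 7 and 5 were lower (22.7%, 31.8% and 22.7%) and 1 higher each time. Of 17 TCA cycle genes 3, 4 and 4 were lower (17.6%, 23.5% and 23.5%), shares near those of all genes, and PC, pyruvate carboxylase, fell by 0.90 in sh-p53 and by 0.96 in sh-con with AICAR. These counts are descriptions, and how they compare with the subunits was not tested.

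Another list held 11 tested genes, taken for the assembly of complexes II and III but with cytochrome c (CYCS) among them. Of these, 3 were higher and 2 lower with AICAR in sh-p53, 4 and 2 with AICAR in sh-con, and 1 and 2 with Nutlin in sh-con. The share called as lower was 18.2% each time, close to or below that of all genes, and the share called as higher was 27.3%, 36.4% and 9.09%, against 16.2%, 14.6% and 11.3% of all genes. CYCS, the carrier between complex III and IV and not an assembly factor, is counted among the higher genes with AICAR. CYCS rose by 0.97 ± 0.17 in sh-p53 and 1.13 ± 0.17 in sh-con with AICAR. UQCC2, a complex III assembly factor, differed by -0.70 and -1.26. Of 4 complex V assembly genes, ATPAF1 was higher with AICAR in both lines (0.77 and 0.51). Of 19 genes for mitochondrial DNA maintenance and expression, 4 were higher and 5 lower, 6 and 7, and 1 and 7 in the same order of comparisons. The lower ones were 26.3%, 36.8% and 36.8%, against 21.6%, 23.2% and 18.9% of all genes. The higher ones were 21.1%, 31.6% and 5.26%, against 16.2%, 14.6% and 11.3%. TFB1M, which methylates mitochondrial ribosomal RNA, differed by -1.81 in sh-p53 and -1.295 in sh-con with AICAR.

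Of 14 tested regulators of respiratory genes, 9 were lower with AICAR in sh-p53, 8 with AICAR in sh-con and 5 with Nutlin in sh-con, with 0, 0 and 1 higher. These shares of 64.3%, 57.1% and 35.7% stand beside 21.6%, 23.2% and 18.9% of all genes called as lower, and the difference was not tested. GABPB1, a subunit of GABP, differed by -1.50 ± 0.16 in sh-p53 and -1.02 ± 0.16 in sh-con with AICAR, and by -0.57 with Nutlin in sh-con. PPARGC1A, the coactivator PGC-1alpha, differed by -1.08 and -1.10 with AICAR in the 2 lines. PPRC1, a related coactivator, differed by -1.10 with AICAR and -0.96 with Nutlin in sh-con. MYC, also counted in this list, differed by -1.17 in sh-p53 and -1.11 in sh-con with AICAR, and by -0.63 with Nutlin in sh-con. NRF1 itself differed by -0.52 with AICAR in sh-p53 and -0.60 with Nutlin in sh-con. In sh-con AICAR it had 6.5 and 6.6, against 6.79 and 6.87 in sh-con DMSO. YY1 went the other way with AICAR, with 9.26 and 9.2 in sh-p53 AICAR, against 8.98 and 8.85 in sh-p53 DMSO. In sh-con YY1 had 9.02 and 9.14 with AICAR, against 8.88 and 8.87 with DMSO, and neither difference was called. The members' own median fold changes were -0.04 with AICAR in sh-p53, -0.04 with AICAR in sh-con and -0.06 with Nutlin in sh-con.

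**Figure D4:**
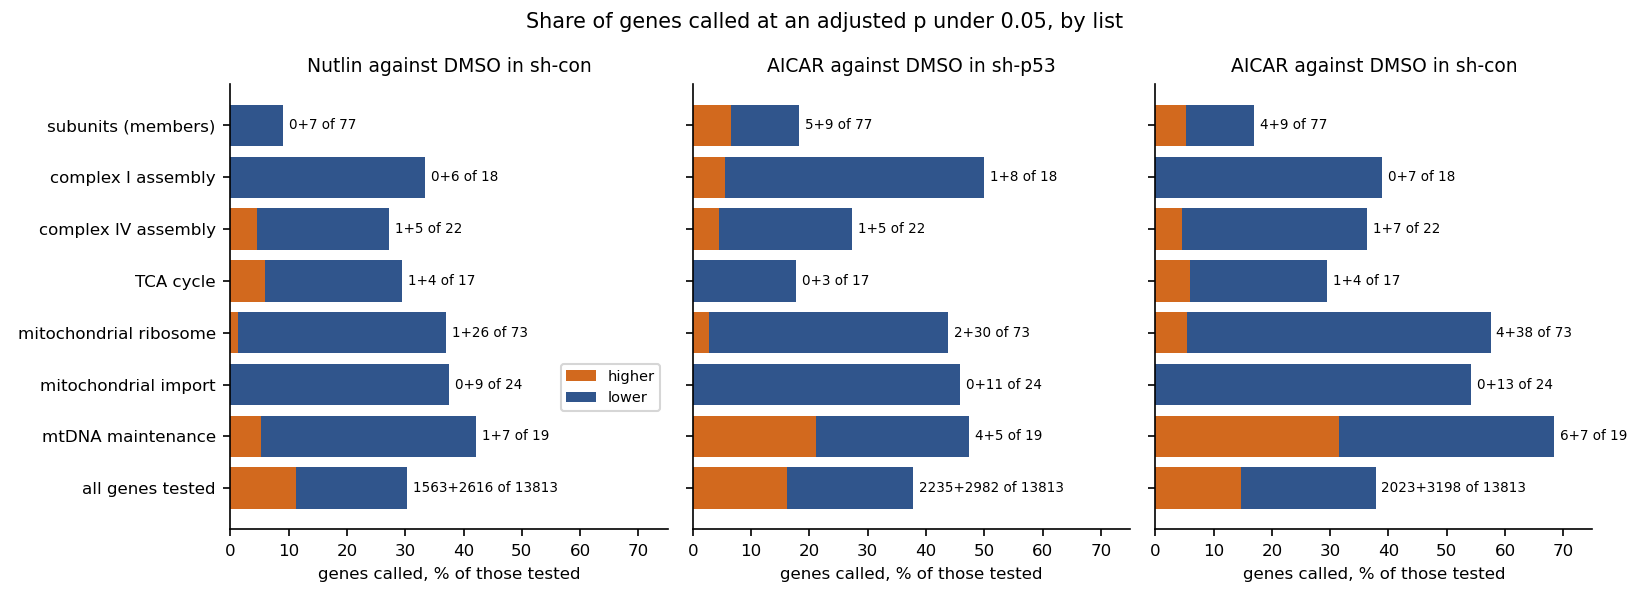
Percent of tested genes called (x axis) at an adjusted p under 0.05 in each gene list (y axis), higher in orange and lower in blue, with the counts higher + lower of the number tested. Subunit genes were called at 9.09%, 18.2% and 16.9% in the panels from left to right, and mitochondrial ribosome genes were called as lower in 26, 30 and 38 of 73.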

How the data were processed

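From each culture 200 ng of total RNA went onto an Affymetrix array, and cells had been plated at 700000 per well in duplicate cultures, per the labels' protocols. The deposited values were log2 expression per probe set, from 2.14 to 14.33. The submitters' processing notes name RMA and Partek; no version of either is stated there. Since RMA equalises array distributions, it removes part of any shift shared by most genes, and changes of dim genes are understated. The number of arrays limits the precision.

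The platform annotation gave 33297 probe sets, 19460 with 1 symbol. Genes whose mean fell below the 25th percentile (4.58) were dropped. Group means of all 12 arrays were fitted with limma 3.58.1 in R 4.3.3 (6 residual and 11.3 prior degrees of freedom), with 8 comparisons, 2-sided tests and Benjamini-Hochberg adjustment over 13813 genes. The fit was tested on simulated data for Nutlin against DMSO in sh-con, with few of 13813 genes changed. It called 84 of 100 changes of 1 log2 unit and 18 of 100 changes of 0.5. More genes were called in the deposited data, so recovery there can differ. Second probe sets were fitted among all single-symbol probe sets, and overlapping neighbours among all genes, without the dim filter. In each comparison the named genes were the called members, up to 10 in each direction, with set core subunits, isoforms, CDKN1A and MDM2, and up to 4 called genes of other lists. The members and lists were chosen with earlier results of these data known. P-values set a difference against the spread between duplicate cultures, pooled over the 6 groups and moderated by the spread of all genes tested. The p53 transcript itself was not analysed here. Alternatives were other scalings, dim filters, the mean of probe sets, an intensity trend, a replicate block and leaving out each array.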

Additional observations from a re-analysis of the deposited data

Results flagged for a closer look

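NDUFB10, an accessory subunit of complex I, was the 1 member whose response to a compound differed between the lines by a test of the difference itself. Its Nutlin response was 0.811 ± 0.197 higher on the log2 scale in sh-p53 than in sh-con (limma adjusted p 0.0139). The fold change was -0.32 ± 0.14 in sh-p53 and -1.13 ± 0.14 in sh-con. Both sh-con Nutlin arrays (7.17 and 7.07) lay below both sh-p53 Nutlin arrays (7.94 and 7.65). The difference was called in 15 of 19 alternatives, with values from 0.67 to 0.96, and was lost without sh-con DMSO 1, sh-p53 DMSO 2, sh-con Nutlin 2 or sh-p53 Nutlin 1 (adjusted p 0.0564 to 0.0866).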

How the results depend on the processing

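Of 3989 recomputed values for the members named by rule, a subset of the 77, 3846 kept their side of the threshold, 130 lost a call, 13 gained one and 0 turned direction. Over all members and comparisons, 4 alternatives added 53 calls: 22 with the second quantile normalisation, 11 with the intensity trend, 10 with centring and 10 with the 50th percentile filter. Counts of called members moved by more than 1.5 times as follows. Quantile normalising again gave higher members of 8 for AICAR in sh-p53, 9 for AICAR in sh-con, 5 for Nutlin in sh-con and 9 for Nutlin against AICAR. It gave 1 lower member for the difference of the AICAR responses, as did the filter at the 50th percentile and the intensity trend. Centring on the median gave 1 higher and 14 lower for AICAR in sh-p53, 2 and 14 for AICAR in sh-con, and 5 lower for Nutlin against AICAR. The 50th percentile filter gave 7 higher for AICAR in sh-con.

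The members' median minus that of all genes was -0.10 for AICAR in sh-p53, -0.08 for AICAR in sh-con, -0.07 for Nutlin in sh-con and 0.07 for the difference of the Nutlin responses. The 50th percentile filter gave 0.028, 0.062, 0.074 and -0.017, and quantile normalising again gave 0.006 for AICAR in sh-p53, so the sign of these small medians depends on the genes tested and the scaling.

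Leaving out each array in turn gave 1 to 5 higher and 4 to 10 lower for AICAR in sh-p53, 2 to 5 and 2 to 9 for AICAR in sh-con, 0 and 1 to 7 for Nutlin in sh-con, 1 to 4 and 5 to 8 for Nutlin against AICAR, and 0 to 1 higher for the difference of the Nutlin responses. The medians then ranged from -0.124 to -0.052 for AICAR in sh-p53, -0.079 to 0.004 for AICAR in sh-con, -0.079 to 0.084 for Nutlin in sh-p53, -0.110 to -0.030 for Nutlin in sh-con, -0.026 to 0.175 and -0.126 to -0.002 for the differences of the Nutlin and AICAR responses, -0.173 to -0.030 for Nutlin against AICAR, and -0.057 to 0.010 for sh-p53 against sh-con in DMSO. A lone remaining array was assumed to vary like the other groups. Arrays with the same replicate number deviated together in some pairs of groups and in opposite ways in others: r was 0.252 to 0.493 between the sh-con groups, 0.355 to 0.567 between sh-p53 Nutlin and those, and -0.558 to -0.386 between sh-p53 AICAR and the sh-con groups. No label ties the numbers to a shared day or batch, so they were not taken as pairs. The replicate block left the counts within 1.5 times: 5 higher and 9 lower for AICAR in sh-p53, 4 and 9 in sh-con, 0 and 7 for Nutlin in sh-con, and 4 and 6 for Nutlin against AICAR. The cause of these shifts was not tested.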
